A study of Mus musculus with 6 samples.

Results

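The miR-99, miR-100 and miR-125 families were followed through 10 mature microRNAs (miRNAs) that 3 paralogous mouse clusters encode, out of 1907 miRNAs listed for each library. The 10 were taken by name: mmu-miR-99a-5p, mmu-miR-99a-3p, mmu-miR-99b-5p, mmu-miR-99b-3p, mmu-miR-100-5p, mmu-miR-125a-5p, mmu-miR-125a-3p, mmu-miR-125b-5p, mmu-miR-125b-1-3p and mmu-miR-125b-2-3p, written below without the species prefix. All 10 had enough counts to be tested. The libraries came from cultured dermal fibroblasts of newborn mice at passage 1, after 6 days of growth. 3 caNrf2 libraries (genotype Col1a2Cre-caNrf2) came from mice that carried a Cre recombinase and a constitutively active mutant of Nrf2, a transcription factor known for inducing antioxidant genes. 3 ctrl libraries (genotype Col1a2Cre-wt) came from mice with the Cre alone, so every library carried the Cre. The Col1a2 promoter that drives the Cre is active in fibroblasts, and both groups had the same mixed background, 50% C57Bl/6 and 50% FVB/N. According to the series design, each library is from a different mouse. Small RNA counts do not measure the Nrf2 transgene, so the genotype labels could not be checked.

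Each miRNA hairpin is cut into a 5p and a 3p strand, and usually 1 of the strands is the more abundant. A strand recognises its targets mainly through its seed, bases 2 to 8. miR-99 and miR-100 are old relatives of miR-10 and are known in human cells for repressing mTOR, a kinase that drives growth. miR-125 is the vertebrate counterpart of the worm miRNA lin-4, and miR-125b is known for repressing p53 in human cells and zebrafish. In each of the 3 clusters a miR-99 or miR-100 precursor, a let-7 precursor and a miR-125 precursor follow one another on the same strand.

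The 5p strands show how little separates the paralogs, and the 3p strands show which precursor a count came from. All 10 sequences are RefSeq's for GRCm38.p6, 5′ to 3′, with the seed in capitals. The miR-99 and miR-100 5p strands have 1 seed in common, ACCCGUA, and the miR-125 5p strands another, CCCUGAG.
miR-99a-5p: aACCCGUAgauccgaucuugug
miR-100-5p: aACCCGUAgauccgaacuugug
miR-99b-5p: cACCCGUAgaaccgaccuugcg
miR-125b-5p: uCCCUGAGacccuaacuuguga
miR-125a-5p: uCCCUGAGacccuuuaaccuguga
miR-99a-3p: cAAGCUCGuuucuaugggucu
miR-99b-3p: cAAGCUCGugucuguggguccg
miR-125b-1-3p: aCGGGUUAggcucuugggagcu
miR-125b-2-3p: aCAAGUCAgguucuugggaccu
miR-125a-3p: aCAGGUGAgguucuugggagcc
miR-99a-5p and miR-100-5p differ by a single base, U16A, counted from the 5′ end of miR-99a-5p. miR-99b-5p differs from miR-99a-5p by A1C, U11A, U16C and U21C. miR-125a-5p and miR-125b-5p have their first 13 bases in common. The miR-125b-5p sequence is identical in Mir125b-1 and Mir125b-2, so its counts cannot be assigned to either precursor, whereas their 3p strands differ at 5 positions (G3A, G4A, U7C, C11U and G20C).

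The clusters lie on chromosomes 16, 9 and 17 (mm10, GENCODE M21). Mir99a (chr16:77598936-77599000), Mirlet7c-1 (chr16:77599657-77599750) and Mir125b-2 (chr16:77646273-77646343) sit within introns of the long noncoding RNA Mir99ahg over 47408 bases, and Mir125b-2 also overlaps an exon of C130023A14Rik. Mir100 (chr9:41531425-41531504), Mirlet7a-2 (chr9:41536716-41536811) and Mir125b-1 (chr9:41581926-41582002) span 50578 bases within introns of the noncoding RNAs 3110039I08Rik and Gm49317, and Mir125b-1 also overlaps an exon of Gm28119. Mir99b (chr17:17830188-17830257), Mirlet7e (chr17:17830352-17830444) and Mir125a (chr17:17830812-17830879) are packed into 692 bases of Spaca6, a protein-coding gene with a known role in sperm. Mir99b and Mirlet7e are intronic there and Mir125a overlaps an annotated exon. The Mir99a hairpin, printed because both of its strands were lower in caNrf2 fibroblasts, has its strands in capitals, as does that of its neighbour Mirlet7c-1, both from RefSeq.
Mir99a: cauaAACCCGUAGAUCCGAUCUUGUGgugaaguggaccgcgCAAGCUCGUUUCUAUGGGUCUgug
Mirlet7c-1: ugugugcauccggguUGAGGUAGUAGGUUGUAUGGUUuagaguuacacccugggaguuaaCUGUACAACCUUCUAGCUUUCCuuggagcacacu

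Library totals ran from 13733970 to 28237159 counts in the caNrf2 group and from 10443268 to 20595024 in the ctrl group. Levels are given as CPM, counts scaled to the library total after its correction by TMM factors. On that scale 3 counts equal 0.107 to 0.289 CPM, below every value of the 10 miRNAs. The libraries held abundant fibroblast miRNAs: 8 listed markers, with miR-22-3p, miR-21a-5p and miR-143-3p carrying most of the sum, added up to 479519 to 517266 CPM in caNrf2 and to 456737 to 467475 CPM in ctrl libraries. Of these 8, miR-22-3p was called higher (log2 fold change 0.31 ± 0.10 SE, edgeR adjusted p = 0.0349). 3 were called lower: miR-199a-5p (-0.51 ± 0.09 SE, edgeR adjusted p = 0.00269), miR-199a-3p (-0.41 ± 0.10 SE, edgeR adjusted p = 0.0140) and miR-10b-5p, a relative of the members described below. The fibroblast markers called lower had fold changes of the same size as the members called lower. The remaining markers of this list did not pass and went both ways. miR-214-3p was negative (-0.27 ± 0.15 SE, edgeR adjusted p = 0.231). Positive were miR-143-3p (0.28 ± 0.09 SE, edgeR adjusted p = 0.0512), miR-145a-5p (0.31 ± 0.11 SE, 0.0602) and miR-21a-5p (0.03 ± 0.12 SE, 0.861). Markers of other cells also moved with the genotype. 6 blood cell markers summed to 157 to 234 CPM in caNrf2 and 37.0 to 70.7 CPM in ctrl libraries. Of these 6, 3 were called higher. miR-142a-5p made up most of that sum (mean 143 CPM in caNrf2, 39.6 CPM in ctrl). The blood markers that did not pass went both ways. miR-451a was positive (log2 fold change 0.48 ± 0.20 SE, edgeR adjusted p = 0.114). Negative were miR-150-5p (-0.10 ± 0.17 SE, edgeR adjusted p = 0.693) and miR-144-3p (-0.998 ± 0.389 SE, 0.0873). miR-144-3p had only 32 counts over the caNrf2 and 46 over the ctrl libraries. 4 muscle markers summed to 546 to 723 CPM in caNrf2 and 336 to 412 CPM in ctrl, with all 3 tested called higher. The muscle marker miR-1a-3p had only 16 counts over the caNrf2 and 9 over the ctrl libraries. 4 neural markers summed to 198 to 204 CPM in caNrf2 and 144 to 154 CPM in ctrl libraries, with both tested ones called higher and only 9 and 8 counts of miR-124-3p. Most of the neural sum was miR-128-3p (mean 188 CPM in caNrf2, 142 CPM in ctrl). 7 epithelial markers (1600 to 2121 and 1035 to 1865 CPM) and 2 endothelial ones (147 to 170 and 116 to 165 CPM) held no called miRNA. The part of these cells in the results below was not tested, and in RNA from a whole culture fewer cells of a type and less miRNA per cell cannot be told apart.

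The comparison asked whether the families, and the clusters behind them, had other levels when Nrf2 was constitutively active in the fibroblasts. Of the 10 miRNAs, 4 fell in caNrf2 fibroblasts, none rose and 6 did not pass the test (edgeR quasi-likelihood test, Benjamini-Hochberg adjusted p under 0.05 over all 697 tested miRNAs). The falls were in miR-99a-5p, miR-99a-3p, miR-125b-2-3p and miR-125b-5p, and all 3 members that only the chromosome 16 cluster can produce were among them. Over all tested miRNAs 25.7% were called, 11.6% lower and 14.1% higher. The median log2 fold change was -0.27 for the 10 members and 0.03 for all tested miRNAs. At an unadjusted p under 0.05, 5 of the 10 passed, and no tool tried called a member higher. Members of 1 cluster may come from 1 primary transcript, so their changes are not separate observations.

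**Figure D1:**
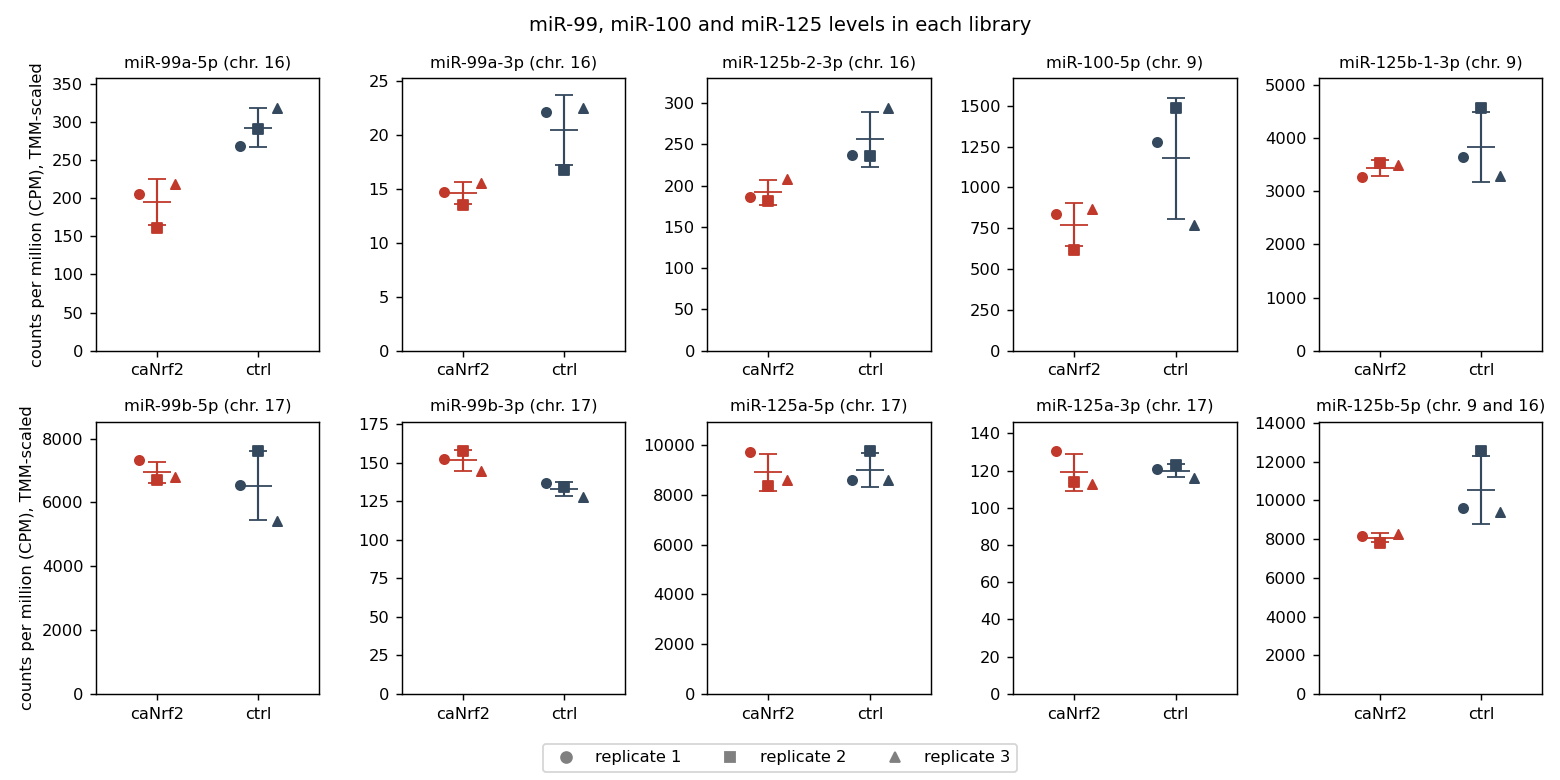
Level of each of the 10 miRNAs in every library, in TMM-scaled CPM (linear axes from 0), for caNrf2 (left) and ctrl (right); points are libraries, bars the mean ± SD (n = 3). miR-99a-5p, miR-99a-3p, miR-125b-2-3p and miR-125b-5p lie lower in all 3 caNrf2 libraries than in any ctrl library, whereas miR-125a-5p, miR-125a-3p and miR-99b-5p overlap.

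In the chromosome 16 cluster every precursor-specific strand was lower in caNrf2 fibroblasts. miR-99a-5p, the main strand of Mir99a, had 206, 161 and 218 CPM in caNrf2 libraries 1, 2 and 3, against 268, 290 and 319 CPM in ctrl libraries 1, 2 and 3. The highest caNrf2 library stayed below the lowest ctrl library. Its means were 195 ± 29.9 CPM in caNrf2 and 292 ± 25.5 CPM in ctrl fibroblasts (SD, n = 3 each; log2 fold change -0.58 ± 0.12 SE, edgeR adjusted p = 0.00533). It was called lower in all 14 alternative fits, including every one that left out a library. The rare strand miR-99a-3p, with 14.7, 13.5 and 15.5 CPM in caNrf2 and 22.2, 16.7 and 22.5 CPM in ctrl libraries, also showed no overlap (log2 fold change -0.49 ± 0.16 SE, edgeR adjusted p = 0.0464). Ctrl library 2 was the lowest control and came within a few CPM of the caNrf2 libraries. Its call was lost without any caNrf2 library (adjusted p = 0.0981, 0.101 and 0.0868 without 1, 2 and 3) and without ctrl library 1 (0.108) or 3 (0.154).

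miR-125b-2-3p, the strand that marks Mir125b-2 47337 bases downstream, had 186, 181 and 208 CPM in caNrf2 libraries, against 237, 236 and 294 CPM in ctrl libraries. Again no libraries overlapped (log2 fold change -0.42 ± 0.11 SE, edgeR adjusted p = 0.0170). The call was lost without caNrf2 library 1 (adjusted p = 0.0574) or 2 (0.0532) and without ctrl library 3 (0.0829). Between these precursors lies Mirlet7c-1. Its own 3p strand, let-7c-1-3p, had 10.7, 9.89 and 12.1 CPM in caNrf2 and 18.8, 21.2 and 19.4 CPM in ctrl libraries, and changed more in log2 terms than any of the 10 family members (-0.86 ± 0.15 SE, edgeR adjusted p = 0.00213). let-7c-5p, which Mirlet7c-2 on chromosome 15 also encodes, fell to 6883 ± 539 CPM in caNrf2, against 8725 ± 421 CPM in ctrl fibroblasts (log2 fold change -0.34 ± 0.09 SE, edgeR adjusted p = 0.0140). Both let-7c strands kept their call in every alternative fit. Together the 4 chromosome 16 strands summed to 366 to 454 CPM in caNrf2 and 546 to 655 CPM in ctrl libraries.

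In the chromosome 9 cluster the fitted changes were also negative, but the libraries were less uniform. miR-100-5p, the main strand of Mir100, had 835, 619 and 866 CPM in caNrf2 libraries, against 1277, 1489 and 770 CPM in ctrl libraries. Ctrl library 3 lay within the caNrf2 range, and the other ctrl libraries lay above it. The log2 fold change of -0.61 ± 0.21 SE was the most negative of the 10 members, yet it did not pass (edgeR adjusted p = 0.0587; 95% interval -1.08 to -0.14). It passed in only 5 of the 14 alternative fits. These were the fits without ctrl library 3 (adjusted p = 0.00558), with RLE size factors (0.0419) and with the 5 most abundant miRNAs left out (0.0459), DESeq2 (0.00540) and no filter (5.18e-07). It did not pass in the others, among them library totals (0.0666), limma-voom (0.0764), the replicate block (0.0927) and the fit without ctrl library 2 (0.204). Its partner strand miR-100-3p did fall, with 7.65, 7.02 and 9.27 CPM in caNrf2 and 12.6, 12.4 and 10.1 CPM in ctrl libraries and no overlap (log2 fold change -0.54 ± 0.16 SE, edgeR adjusted p = 0.0336). That call was lost without caNrf2 library 1 (adjusted p = 0.0885) or 2 (0.0884) or ctrl library 1 (0.0890) or 2 (0.0780). let-7a-2-3p was rare, with 112 counts over the caNrf2 and 110 over the ctrl libraries, and did not pass (log2 fold change -0.45 ± 0.28 SE, edgeR adjusted p = 0.261). Its log2 fold change was -0.69 without caNrf2 library 1, -0.27 without caNrf2 library 2 and -0.27 without ctrl library 2.

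miR-125b-1-3p marks the last precursor of the chromosome 9 cluster and was far more abundant than its chromosome 16 counterpart. It had 3269, 3538 and 3501 CPM in caNrf2 libraries, against 3653, 4577 and 3298 CPM in ctrl libraries. Ctrl library 3 again lay among the caNrf2 libraries (log2 fold change -0.16 ± 0.11 SE, edgeR adjusted p = 0.325; 95% interval -0.41 to 0.09). Without ctrl library 2, its highest library, the log2 fold change was -0.03, and without ctrl library 3 it was -0.26. In counts it exceeded miR-125b-2-3p 17.6, 19.5 and 16.8 times in the caNrf2 libraries and 15.4, 19.4 and 11.2 times in the ctrl libraries, so the chromosome 16 strand made up 4.87% to 5.62% and 4.90% to 8.19% of the paired counts.

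miR-125b-5p, the abundant strand that both clusters encode, had 8183, 7815 and 8256 CPM in caNrf2 libraries, against 9632, 12569 and 9394 CPM in ctrl libraries. The groups did not overlap, and ctrl library 2 stood highest. Without that library the log2 fold change was -0.24 in place of -0.38 (SE 0.11 with all libraries, edgeR adjusted p = 0.0299 with all and 0.0656 without it), and the call was also lost without caNrf2 library 1 (0.0595), 2 (0.0687) or 3 (0.0689). The ratio of miR-125b-5p to miR-125b-1-3p counts, examined after the values were seen and not tested, was 2.50, 2.21 and 2.36 in caNrf2 and 2.64, 2.75 and 2.85 in ctrl libraries. The ratio was thus lower in each caNrf2 library than in any ctrl library.

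No member of the chromosome 17 cluster passed the test. miR-125a-5p had 9743, 8368 and 8604 CPM in caNrf2 libraries, against 8614, 9774 and 8602 CPM in ctrl libraries. These libraries intermingled (log2 fold change -0.01 ± 0.09 SE, edgeR adjusted p = 0.932; 95% interval -0.22 to 0.19). Its partner miR-125a-3p had 131, 114 and 113 CPM in caNrf2 and 121, 123 and 116 CPM in ctrl libraries, also intermingled (-0.01 ± 0.10 SE, edgeR adjusted p = 0.956; 95% interval -0.24 to 0.22). Changes within these intervals, in either direction, remain compatible with the counts of 3 libraries a group. miR-99b-5p, the most abundant strand with the miR-99 and miR-100 seed, had 7323, 6689 and 6802 CPM in caNrf2 libraries, against 6531, 7615 and 5432 CPM in ctrl libraries, which spread on both sides of the caNrf2 range (0.09 ± 0.12 SE, edgeR adjusted p = 0.615; 95% interval -0.17 to 0.34).

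miR-99b-3p was the member with non-overlapping libraries in the other direction. It had 152, 158 and 145 CPM in caNrf2 libraries, against 137, 134 and 128 CPM in ctrl libraries (log2 fold change 0.19 ± 0.09 SE, edgeR adjusted p = 0.167; 95% interval -0.02 to 0.39), and it passed in none of the 14 alternatives. let-7e-3p, from the precursor between Mir99b and Mir125a, had the same pattern, at 53.3, 50.6 and 51.9 CPM in caNrf2 and 46.2, 43.5 and 40.6 CPM in ctrl libraries, and did not pass either (0.26 ± 0.12 SE, edgeR adjusted p = 0.137). The main strand let-7e-5p had 2819 ± 167 CPM in caNrf2 and 3026 ± 198 CPM in ctrl fibroblasts (-0.10 ± 0.08 SE, edgeR adjusted p = 0.394). Over all tested miRNAs the groups did not overlap for 41.6%, 17.9% with caNrf2 lower and 23.7% with caNrf2 higher. Among the 10 members 4 were separated downwards and 1 upwards.

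**Figure D2:**
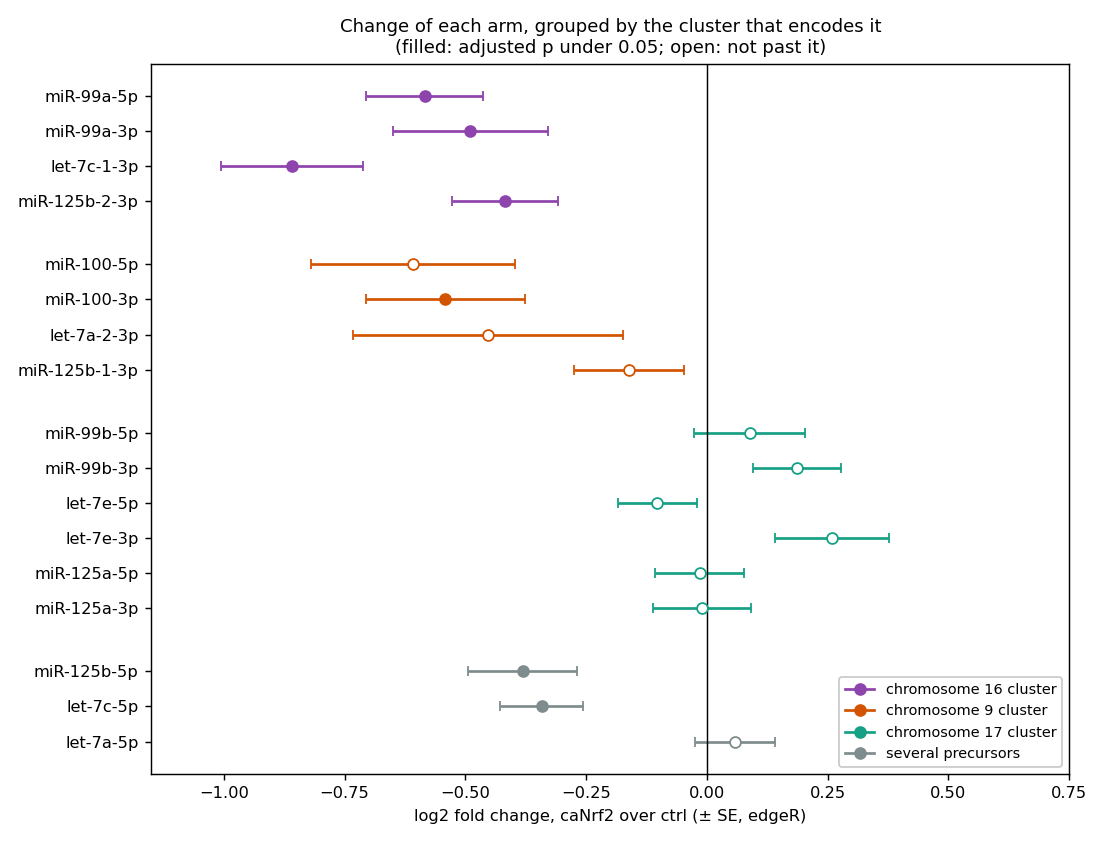
Log2 fold change (caNrf2 over ctrl, ± SE, edgeR) of each strand, grouped by the cluster that encodes it, with the let-7 strands and miR-100-3p of the same clusters; filled points passed an adjusted p of 0.05. All 4 chromosome 16 strands are filled and negative, 1 of 4 chromosome 9 strands is filled, and none of the 6 chromosome 17 strands is.

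Of the 7 let-7 and miR-100-3p strands taken along as partners of the members, 3 fell, none rose and 4 did not pass, with a median log2 fold change of -0.34. Over all tested miRNAs 11.6% were called lower. Over the strands that only 1 cluster encodes, the median log2 fold change was -0.54 for 4 strands on chromosome 16, -0.50 for 4 on chromosome 9 and 0.04 for 6 on chromosome 17. let-7a-5p, which several let-7a precursors encode, had 7309 ± 511 CPM in caNrf2 and 7022 ± 301 CPM in ctrl fibroblasts (log2 fold change 0.06 ± 0.08 SE, edgeR adjusted p = 0.641).

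Whether the paralogs changed differently was tested with 9 ratios of counts within each library, which do not depend on how libraries are scaled. In 4 ratios, each with a chromosome 17 strand, the groups did not overlap. The ratio of miR-99b-5p to miR-99a-5p was 35.6, 41.5 and 31.2 in caNrf2 libraries, against 24.4, 26.3 and 17.05 in ctrl libraries (mean log2 difference 0.69). That of miR-99b-5p to miR-100-5p was 8.77, 10.8 and 7.85 in caNrf2 and 5.12, 5.11 and 7.05 in ctrl libraries (0.67). miR-125a-5p exceeded miR-125b-5p in each caNrf2 library (ratios 1.19, 1.07 and 1.04) and stayed below it in each ctrl library (0.894, 0.778 and 0.916; mean log2 difference 0.35). The ratio of miR-99a-3p to miR-99b-3p was 0.0962, 0.0855 and 0.107 in caNrf2 libraries, against 0.162, 0.124 and 0.176 in ctrl libraries (-0.67). Each of the 4 had a two-sided exact permutation p of 0.1, the smallest that 3 against 3 libraries can give, and 0.225 adjusted over the 9 ratios, so none could pass.

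In both ratios between chromosome 16 and chromosome 9 strands the groups overlapped. The ratio of miR-99a-5p to miR-100-5p was 0.246, 0.261 and 0.252 in caNrf2 libraries, against 0.210, 0.195 and 0.414 in ctrl libraries (mean log2 difference -0.02, exact permutation p = 1, adjusted 1). The caNrf2 libraries were close together and lay within the ctrl range, which ctrl library 3 set at its upper end. Without ctrl library 3 the mean log2 difference was 0.32. In that library miR-99a-5p was at its highest and miR-100-5p at its lowest control level, although only 1 base separates them. For miR-125b-2-3p against miR-125b-1-3p the mean log2 difference was -0.26 (exact permutation p = 0.4, adjusted 0.600), which was -0.06 without ctrl library 3 and -0.45 without ctrl library 2. Without ctrl library 2 the groups no longer overlapped (exact permutation p = 0.1, which is as low as this number of libraries allows). The 5p to 3p ratios within 1 precursor differed between the groups by -0.11 for miR-99a, -0.09 for miR-99b and -0.00286 for miR-125a on the log2 scale (exact permutation p = 0.4, 0.6 and 1; adjusted 0.600, 0.771 and 1).

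**Figure D3:**
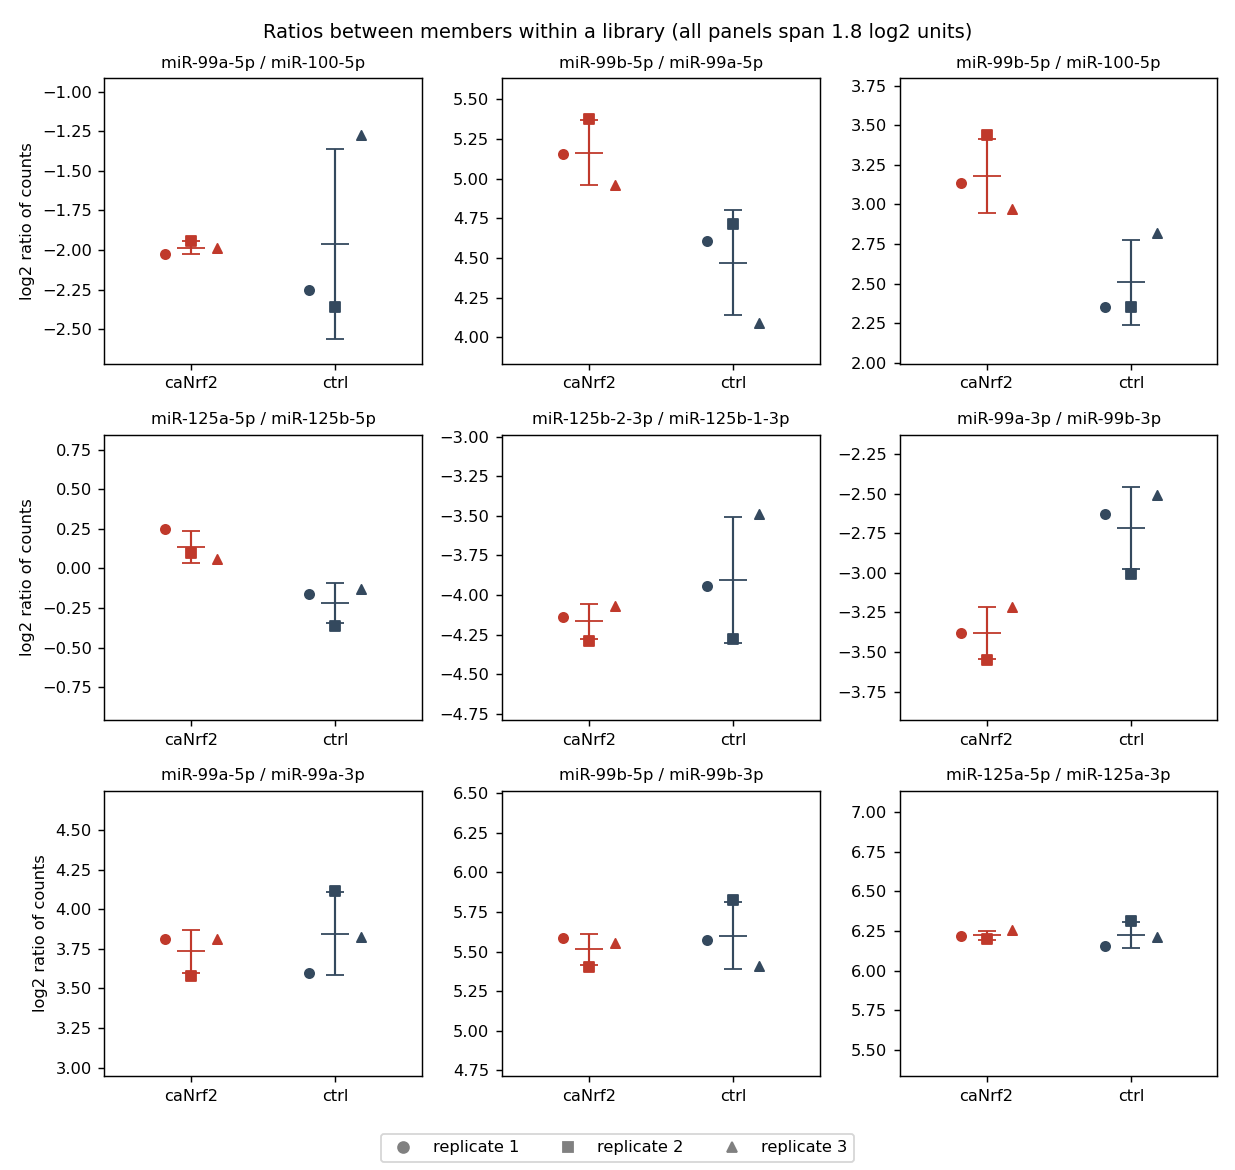
Log2 ratio of raw counts between pairs of members in every library, caNrf2 (left) and ctrl (right), with mean ± SD (n = 3); each panel spans the same 1.8 log2 units. The groups are apart for miR-99b-5p over miR-99a-5p, miR-99b-5p over miR-100-5p, miR-125a-5p over miR-125b-5p and miR-99a-3p over miR-99b-3p, and overlap in the other 5 ratios.

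Summed over the 5p strands of its members, neither family passed. The miR-125 sum left out miR-351-5p, a non-member with the same seed that is described below, so it is not a sum over the whole seed. The miR-99 and miR-100 5p strands together had 8364, 7468 and 7886 CPM in caNrf2 and 8076, 9394 and 6521 CPM in ctrl libraries (log2 fold change of the summed counts -0.02 ± 0.12 SE, edgeR adjusted p = 0.939; 95% interval -0.29 to 0.25). They held 0.797% ± 0.064 of all counts in caNrf2 and 0.794% ± 0.149 in ctrl libraries (SD, n = 3 each; two-sided exact permutation p = 1). Within that sum miR-99b-5p supplied 87.6%, 89.6% and 86.3% in caNrf2 and 80.9%, 81.1% and 83.3% in ctrl libraries, a higher share in every caNrf2 library. The miR-125 5p strands summed to 17925, 16183 and 16859 CPM in caNrf2 and 18246, 22343 and 17997 CPM in ctrl libraries. On this TMM scale caNrf2 library 1 lay just under the lowest ctrl library (log2 fold change of the summed counts -0.22 ± 0.10 SE, edgeR adjusted p = 0.153; 95% interval -0.45 to 0.01). Without ctrl library 2 it was -0.10. As shares of all counts the groups overlapped, with 1.86%, 1.61% and 1.67% in caNrf2 and 1.81%, 2.23% and 1.77% in ctrl libraries. The mean share was 1.71% ± 0.131 in caNrf2 and 1.94% ± 0.255 in ctrl libraries (SD, n = 3 each; difference -0.225 points, exact permutation p = 0.3). The difference was -0.0784 points without ctrl library 2 and -0.107 points with the 5 most abundant miRNAs left out.

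In order of mean level the most abundant members were miR-125a-5p, miR-125b-5p and miR-99b-5p in caNrf2 fibroblasts, and miR-125b-5p, miR-125a-5p and miR-99b-5p in ctrl fibroblasts. The ranges of miR-125b-5p and miR-125a-5p overlapped in the ctrl group, and those of miR-99a-5p and miR-125b-2-3p overlapped in both groups; all other neighbours in the order were separate. These levels are CPM of strands of 21 to 24 bases, and capture during library preparation may differ between sequences.

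**Figure D4:**
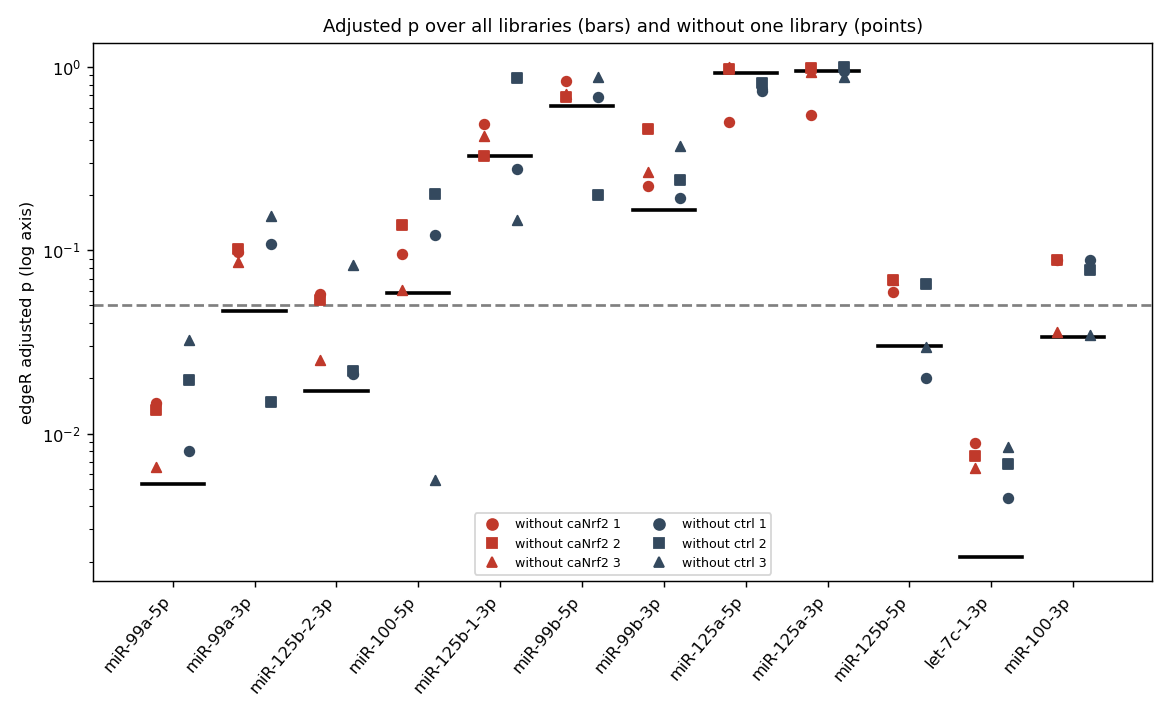
edgeR adjusted p (log axis) of each member, of let-7c-1-3p and of miR-100-3p with all libraries (black bars) and with 1 library left out (points; red caNrf2, dark blue ctrl); the dashed line is 0.05. miR-99a-5p and let-7c-1-3p stay under the line throughout, miR-99a-3p, miR-125b-2-3p, miR-125b-5p and miR-100-3p cross it, and miR-100-5p drops under it only without ctrl library 3.

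miRNAs related to the members by sequence also fell. miR-351-5p, encoded on the X chromosome, has the miR-125 seed, and its first 8 bases are those of miR-125b-5p (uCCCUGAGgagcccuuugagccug).
It had 5011, 4655 and 5271 CPM in caNrf2 libraries, against 6302, 6955 and 6806 CPM in ctrl libraries, with no overlap (log2 fold change -0.43 ± 0.08 SE, edgeR adjusted p = 0.00367). The miR-125 seed is also listed for miR-6367, at 0 counts, and miR-6394, with 1 count in all. Of the miR-10 strands, relatives of miR-99 and miR-100 whose 5p seed is ACCCUGU, all 4 tested fell. miR-10a-5p had 6865, 9338 and 9952 CPM in caNrf2, against 12098, 17903 and 13242 CPM in ctrl libraries (-0.73 ± 0.17 SE, edgeR adjusted p = 0.00941). miR-10b-5p averaged 31705 ± 3205 CPM in caNrf2 and 46813 ± 2065 CPM in ctrl fibroblasts (SD, n = 3 each; -0.56 ± 0.10 SE, edgeR adjusted p = 0.00245). miR-10a-3p (-0.58 ± 0.15 SE, edgeR adjusted p = 0.0148) and miR-10b-3p (-0.66 ± 0.16 SE, edgeR adjusted p = 0.0108) fell by similar amounts. Over the 6 tested relatives 5 fell, none rose and miR-351-3p did not pass (edgeR adjusted p = 0.120, but 0.0255 without caNrf2 library 1). Over all tested miRNAs 11.6% were called lower. The 5p and 3p strands of Mir10a come from 1 precursor, as do those of Mir10b, so these falls are not separate observations. miR-670-5p had 0 counts.

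By profile over the 6 libraries, the tested miRNAs closest to miR-99b-5p were miR-155-5p, miR-365-3p and miR-3099-3p, with root mean squared differences of 0.04, 0.10 and 0.10 log2 units from its centred profile. The closest to miR-125b-5p were let-7b-3p, miR-673-3p and miR-210-5p (0.04, 0.07 and 0.08 log2 units), out of 361 candidates with a mean of at least 10 CPM. let-7b-3p had 38.9, 38.7 and 41.6 CPM in caNrf2 and 48.8, 63.3 and 49.0 CPM in ctrl libraries, highest in ctrl library 2 like miR-125b-5p (log2 fold change -0.44 ± 0.14 SE, edgeR adjusted p = 0.0414). Its call was lost without any 1 library other than ctrl library 1 (adjusted p from 0.0578 to 0.109) and with library totals in place of TMM factors (0.0570). miR-673-3p (-0.26 ± 0.12 SE, edgeR adjusted p = 0.142) and miR-210-5p (-0.28 ± 0.16 SE, 0.246) did not pass. These miRNAs were picked for their profiles over the same libraries, so their likeness to miR-125b-5p follows from the selection.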

How the data were processed

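The authors deposited 1 file per library with raw read counts for 1907 mature miRNAs, of which 488 had no count anywhere. Per the submitters' processing notes, the tools were cutadapt, Bowtie, CASAVA 1.8, edgeR and featureCounts, with mm10. How many mismatches were permitted and how reads matching more than 1 precursor were counted is not stated there, so reads of near-identical strands may be misassigned. Within each group no library was a copy of another (lowest chi-square per degree of freedom 101). Pairs of a caNrf2 and a ctrl library were not compared.

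The deposited counts were analysed in R 4.3.3 with edgeR 4.0.16: filterByExpr at a minimum count of 10, TMM factors, then glmQLFit and glmQLFTest with genotype alone in the model, adjusted over 697 miRNAs. SEs come from the F statistic, and 95% intervals use its degrees of freedom. CPM values are TMM-scaled. The edgeR p-values set the genotype difference against the spread between 3 mice per group, estimated with information from all tested miRNAs. Ratios used counts plus 0.5 and exact permutation over 20 assignments. Alternatives were RLE, library totals, DESeq2 1.42.0, limma-voom 3.58.1, other filters, omission of the 5 most abundant miRNAs, a replicate block and leaving out each library. The members, lists and tests were chosen with earlier results of these data known. Named miRNAs were the members, their cluster partners, relatives by sequence, and the 3 closest profiles of miR-99b-5p and of miR-125b-5p. On simulated counts for 697 miRNAs the caNrf2 comparison recovered 41.8% of 1.5-fold, 80.6% of 2-fold and 95.5% of 4-fold changes.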

Additional observations from a re-analysis of the deposited data

How the results depend on the processing

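The number of members called lower, 4 with all libraries, was 1 to 3 without 1 library (1 without caNrf2 library 1 or 2, 2 without caNrf2 library 3), and 3 to 5 in the other alternatives; none was called higher in any. Over all miRNAs, 98 were called higher and 81 lower; 71 to 97 were called higher without 1 library, and 60 (with 71 lower) when only miRNAs averaging 10 CPM or more were tested. miR-99a-3p and let-7b-3p were not called with library totals (adjusted p = 0.0570 each). Values near 0 changed sign. With library totals the log2 fold change was 0.0092 for miR-125a-5p, 0.0142 for miR-125a-3p and 0.0057 for the summed miR-99 and miR-100 5p strands, and with the 10 CPM filter 0.0077, 0.0124 and 0.0228. Without 1 library the log2 fold changes ranged from -0.0897 to 0.0400 for miR-125a-5p, -0.0867 to 0.0199 for miR-125a-3p, -0.0288 to 0.205 for miR-99b-5p, -0.0027 to 0.0844 for let-7a-5p, -0.0814 to 0.174 for miR-155-5p, -0.0226 to 0.177 for miR-3099-3p and -0.144 to 0.0945 for the summed miR-99 and miR-100 5p strands. The log2 ratio differences then ranged from -0.220 to 0.323 for miR-99a-5p to miR-100-5p, -0.451 to -0.0554 for miR-125b-2-3p to miR-125b-1-3p, -0.237 to 0.0234 for miR-99a-5p to miR-99a-3p, -0.183 to 0.0261 for miR-99b-5p to miR-99b-3p and -0.0398 to 0.0412 for miR-125a-5p to miR-125a-3p. The share of the miR-99 and miR-100 5p strands then differed by -0.0733 to 0.0753 points, and that of the miR-125 5p strands by -0.310 to -0.0784 points. The cause of these changes was not tested. Deviations of same-numbered libraries correlated at 0.18, 0.11 and -0.22, and those of differently numbered ones at -0.36 to 0.36. With 3 libraries a group such correlations cannot show whether the replicate numbers pair the libraries. With a replicate block 102 miRNAs were called higher and 87 lower, 4 members among those lower, and the miR-100-3p (adjusted p = 0.0552) and let-7b-3p (0.0529) calls were lost. let-7a-2-3p rested on 26 to 48 counts a library.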

Other observations

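Nrf2 binds antioxidant response elements, whose core is TGACNNNGC. The RefSeq promoter windows (250 bases before to 50 after a start, GRCm38.p6, both strands read) of Mir100hg, Mir99ahg and Spaca6 were searched for it. Mir100hg is a RefSeq name on chromosome 9, where the hosts named above are 3110039I08Rik and Gm49317. Whether its windows are starts of those hosts was not tested. One of the Mir100hg windows (chr9:41376276-41376575) holds 1 match, shown in capitals: tgggggtccgTGACTTGGCggtggcgcct. The second Mir100hg window and the Mir99ahg window hold none, and 12.4% of all 32851 windows hold at least 1. The RefSeq Spaca6 window (chr17:17830725-17831024) contains Mir125a and lies downstream of Mir99b and Mirlet7e, so no window upstream of the chromosome 17 cluster was searched. A match of letters is a description and says nothing on binding.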
